A study of Mus musculus with 5 samples.

Results

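The genes examined were 38 mouse genes of the cell cycle, 19 that act in DNA replication and 19 that act in mitosis, out of 30907 mouse features in the count matrices. They were chosen by name, and all 38 were found in the 5 single-cell libraries and passed the filter on low counts in epithelial cells. The study transplanted basal cells made from mouse embryonic stem cells (iBCs) into injured tracheas and profiled the tracheal cells 40 and 56 days later. Recipients were adult wild-type mice of the strain 129 X1/S1 that received 2% polidocanol, a detergent that strips the airway epithelium, and 5 hours later 6000000 iBCs into the trachea. There was 1 recipient for each day. Live cells (Calcein Blue positive) of each recipient were sorted by GFP. GFP-positive cells are called donor-derived here, and GFP-negative cells endogenous. The control was the trachea of 1 mouse of the same strain with neither injury nor transplantation, sorted on Calcein Blue alone, so it shares no agent with the recipients. The sources used here do not say whether the transplanted cells came from 1 clone. The 2 libraries of a group differ in recipient and in day, and these cannot be told apart.

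A cell that divides first copies its DNA and then separates the copies. The Mcm2 to Mcm7 proteins form the helicase that opens the double strand, Cdt1 and Cdc6 load it at origins, Pcna is the sliding clamp of the polymerases, and Rrm1, Rrm2 and Tyms supply nucleotides. Replication genes are switched on by E2F factors as a cell leaves G1, and mitosis genes later by complexes that hold B-MYB and FOXM1. In resting cells the DREAM complex keeps mitosis genes off through the CHR element, and CCAAT boxes are common in their promoters. In the resting trachea few epithelial cells divide, and basal cells are the main dividing stem cells that replace secretory and ciliated cells.

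The promoters of the 2 gene lists differed in the letters they hold. RefSeq promoters (GRCm38.p6, 250 bases before to 50 bases after each start) were found for 31 members, 16 replication and 15 mitosis genes, with 34 promoters. A CHR (TTTGAA or TTCGAA, either strand) was present in 13 of 16 mitosis promoters (81.2%) and 2 of 18 replication promoters (11.1%), against 19.2% of all 32851 promoters. An E2F site (TTTGGCGC, TTTGCCGC, TTTCGCGC or TTTCCCGC, either strand, overlapping sites counted apart) was present in 1 of 16 mitosis promoters (6.25%) and 9 of 18 replication promoters, against 2.26% of all. A CCAAT box was present in 87.5%, 66.7% and 37.4% of them. These are matches of letters only. The 200 bases before the start of 3 replication and 3 mitosis genes are shown as examples of these 2 arrangements. Capitals mark E2F sites in the first 3 (Mcm5, chr8:75109309-75109508, plus strand; Mcm6, chr1:128359706-128359905, minus strand; Cdca7, chr2:72476019-72476218, plus strand). In the last 3 they mark CHR elements and CCAAT boxes (Top2a, chr11:99024190-99024389, minus strand; Ube2c, chr2:164769729-164769928, plus strand; Cdk1, chr10:69352913-69353112, minus strand).
Mcm5: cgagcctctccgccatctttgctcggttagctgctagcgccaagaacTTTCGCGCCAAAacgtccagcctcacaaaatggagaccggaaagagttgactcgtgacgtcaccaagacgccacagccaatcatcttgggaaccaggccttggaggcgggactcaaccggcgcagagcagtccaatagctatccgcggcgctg
Mcm6: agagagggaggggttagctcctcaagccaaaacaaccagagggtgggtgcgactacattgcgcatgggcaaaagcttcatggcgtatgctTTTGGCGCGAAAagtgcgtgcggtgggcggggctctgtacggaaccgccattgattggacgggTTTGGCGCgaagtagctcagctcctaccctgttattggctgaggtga
Cdca7: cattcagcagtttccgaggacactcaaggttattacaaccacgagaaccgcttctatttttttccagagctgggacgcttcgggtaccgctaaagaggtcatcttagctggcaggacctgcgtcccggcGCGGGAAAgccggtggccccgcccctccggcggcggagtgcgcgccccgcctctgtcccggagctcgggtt
Top2a: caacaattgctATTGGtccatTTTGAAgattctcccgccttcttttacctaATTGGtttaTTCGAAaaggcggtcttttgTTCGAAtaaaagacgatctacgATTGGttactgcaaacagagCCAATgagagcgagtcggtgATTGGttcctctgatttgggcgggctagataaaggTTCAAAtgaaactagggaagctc
Ube2c: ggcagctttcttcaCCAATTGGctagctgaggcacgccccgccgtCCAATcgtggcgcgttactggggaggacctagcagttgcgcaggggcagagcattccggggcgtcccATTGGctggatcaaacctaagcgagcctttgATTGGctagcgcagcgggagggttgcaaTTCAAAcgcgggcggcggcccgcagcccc
Cdk1: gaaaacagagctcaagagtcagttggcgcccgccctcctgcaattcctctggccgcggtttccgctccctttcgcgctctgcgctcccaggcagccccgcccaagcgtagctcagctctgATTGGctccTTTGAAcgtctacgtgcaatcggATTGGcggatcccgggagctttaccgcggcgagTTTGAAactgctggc
Top2a holds 4 CHR elements and 5 CCAAT boxes in this stretch, and Ube2c 1 and 5. Cdk1 also holds 1 E2F site, left in lower case, and is the mitosis promoter counted above.

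All libraries held whole-number UMI counts, 16580940 to 25569394 per library. Epithelial cells (1 or more Epcam UMIs, no Ptprc UMI) numbered 1620 and 1554 in the donor-derived libraries on day 40 and day 56, 1035 and 775 in the endogenous libraries, and the control had 593. Their median depths were 10418 to 13334 UMIs. Between 0 and 2 cell barcodes were shared by any 2 libraries. In the control, 192 barcodes had over 10% of their UMIs on human genes and were not used. Levels are UMIs per 1000000 UMIs of a library (CPM), scaled for composition. Epcam stood at 435 to 751 CPM, and the basal gene Krt5, the secretory gene Scgb1a1 and the ciliated gene Foxj1 were detected in every library. Of the immune markers, the summed level of the 11 measured genes was 874 and 213 CPM in donor-derived cells, against 2300 and 5060 CPM in the endogenous libraries and 2380 CPM in the control. Nearly all of it was Lyz2, and Cd3e and Cd79a stood at 0 to 0.474 CPM in these cells. The 7 markers of mesenchymal and endothelial cells summed to 95.3 to 319 CPM, with 0 to 4 of them at 0 in a library.

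Replication genes stood higher in donor-derived than in endogenous epithelial cells in both recipients. No single one passed the main test over all genes, which leaves out the pairing by recipient. With the recipient as a block Atad2, Tyms, Mcm3 and Mcm7 passed. The 19 replication genes summed to 275 and 211 CPM in the donor-derived libraries on day 40 and day 56, 173 and 126 CPM in the endogenous libraries and 166 CPM in the control. Both donor-derived libraries lay above both endogenous ones. All 19 genes were higher in the donor-derived library on day 40, and 18 of 19 on day 56, Cdc6 being the exception. For 12 of the 19 the lower donor-derived library still exceeded the higher endogenous one, and for 0 the reverse held. Over all 13626 genes tested, 32.5% lay above and 31.6% below in this way.

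Of the helicase subunits, Mcm3 stood at 14.4 and 6.52 CPM in donor-derived cells, against 5.74 and 3.32 CPM in the endogenous libraries and 5.05 CPM in the control. Mcm7 stood at 20.9 and 16.1 CPM, 12.2 and 9.79 CPM, and 12.4 CPM in the same order. Mcm2, Mcm3, Mcm4 and Mcm7 had no overlap between the groups, while Mcm5 and Mcm6 were higher in the endogenous library of day 40 than in the donor-derived library of day 56. Cdt1, which loads the helicase, stood at 5.18 and 2.37 CPM in donor-derived cells, against 2.23 and 0.789 CPM in the endogenous libraries and 5.05 CPM in the control. Its control value lay beside that of donor-derived cells on day 40.

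Among the other replication genes, Cdca7, whose product works with the remodeller Hells in chromatin and DNA methylation, stood at 18.5 and 22.1 CPM in donor-derived cells, against 11.6 and 8.37 CPM in the endogenous libraries and 13.9 CPM in the control. Atad2, an E2F target with a bromodomain, stood at 26.4 and 21.8 CPM, 14.5 and 10.0 CPM, and 17 CPM in that order. For both genes the donor-derived libraries were the highest and the control lay between the groups. Slbp, which binds the stem-loop of histone mRNAs, stood at 42.1 and 48.0 CPM, 35.0 and 33.0 CPM, and 31.7 CPM. The control was the lowest library for Slbp and, narrowly, for Tyms, the thymidylate synthase, which stood at 24.8 and 18.0 CPM, 13.6 and 10.7 CPM, and 10.7 CPM.

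**Figure D1:**
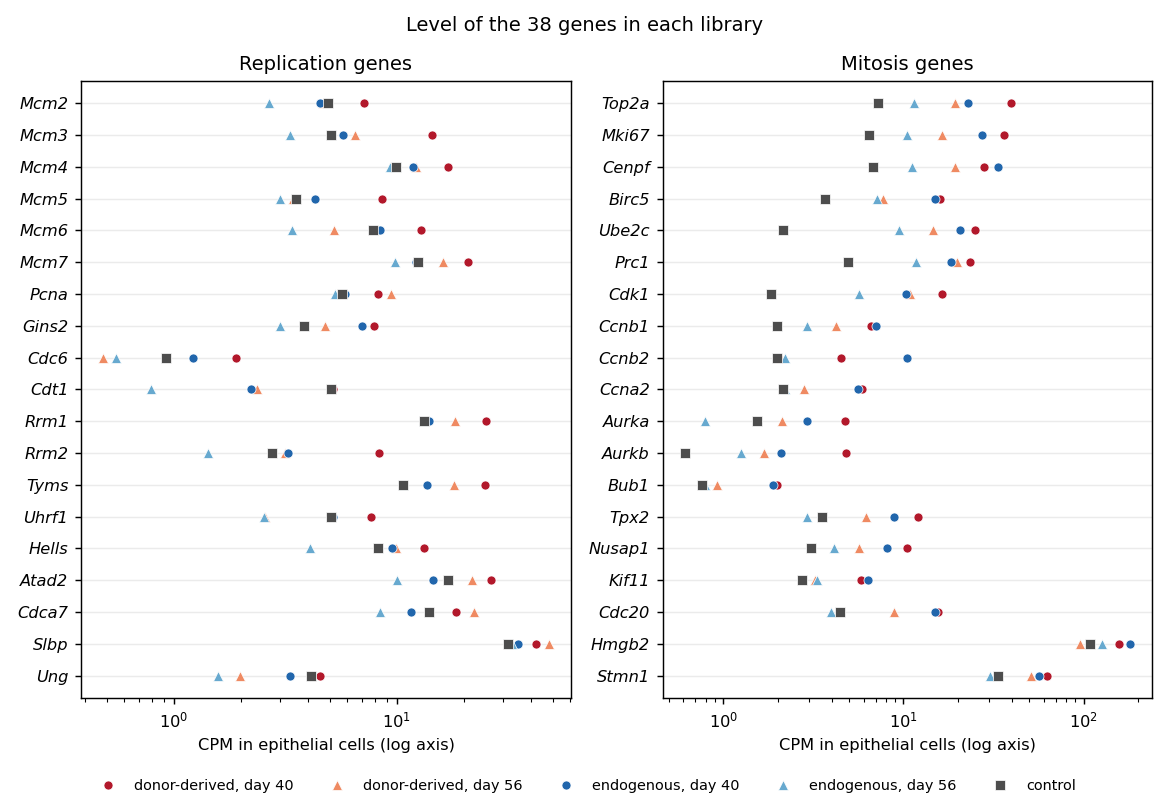
Level of each gene in epithelial cells of each library, in CPM on a log axis. Red and orange points are donor-derived cells on day 40 and day 56, dark and light blue endogenous cells, and grey squares the control. The control is the furthest left point for 14 of 19 mitosis genes and 2 of 19 replication genes, and day 40 points of mitosis genes lie right of the day 56 points of the same group.

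In edgeR's quasi-likelihood test on counts summed per library, 12.2% of the 13626 genes were called at an adjusted p under 0.05, with 461 (3.38%) of them higher in the donor-derived group and 1201 (8.81%) lower. None of the 38 members was among them, with 7 replication genes and 0 mitosis genes at an unadjusted p under 0.05. The share of all genes at that unadjusted p is not given here. DESeq2 called 2 members, Cdca7 and Atad2, and over all 13626 genes it called 863 higher and 1726 lower. The median log2 fold change was 0.69 over the replication genes, all 19 positive, and 0.37 over the mitosis genes, 16 positive and 3 negative, beside 0.011 over all genes tested. The lowest adjusted p belonged to Cdca7 (chr2:72476159-72486893), with a log2 fold change of 1.0 ± 0.21 (SE) and an edgeR adjusted p of 0.052. Atad2 (chr15:58094044-58135082) followed at 0.95 ± 0.22 (adjusted p = 0.063), and Mcm7 (chr5:138164583-138172422) at 0.74 ± 0.21 (adjusted p = 0.089). Top2a, the topoisomerase that untangles sister chromatids, stood at 39.6 and 19.2 CPM in donor-derived cells, against 22.8 and 11.5 CPM in the endogenous libraries and 7.19 CPM in the control, and its log2 fold change was 0.76 ± 0.49 (edgeR adjusted p = 0.37).

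With the recipient as a block, which takes out the difference between the 2 days, edgeR called 5 members higher (4.21% of all genes were called higher) and 0 lower (10.7%). They were Atad2 (adjusted p = 0.030), Top2a (0.038), Tyms (0.040), Mcm3 (0.041) and Mcm7 (0.047). With a library left out, a group holds a single library. The number of members called then changed with the library, as did that of all genes, and no gene was called without either endogenous library. The p-values of the main fit measure the spread of 2 libraries in each group. Those of the fit with the block measure how the difference between the groups varied over the 2 recipients. A group left with a single library has no spread of its own.

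All 19 mitosis genes stood higher on day 40 than on day 56 in both groups, and most stood lowest in the control. Their summed level, without Hmgb2 and Stmn1, which resting cells also express, was 257 and 145 CPM in donor-derived cells on day 40 and day 56, 216 and 91.5 CPM in endogenous cells and 55.7 CPM in the control. Each day 40 library exceeded the day 56 library of its group. At least 1.5-fold higher levels on day 40 in both groups were found for 15 of 19 mitosis genes and 9 of 19 replication genes, against 3.19% of all genes tested. The reverse was found for 0 of 38, against 1.31%. With 1 recipient on each day this difference has no test.

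Mki67, the proliferation antigen, stood at 36.2 and 16.3 CPM in donor-derived cells, against 27.2 and 10.4 CPM in the endogenous libraries and 6.43 CPM (exact Poisson 95% interval 4.63 to 8.69) in the control. Ube2c, which helps the anaphase-promoting complex to mark cyclins for destruction, stood at 25 and 14.5 CPM, 20.7 and 9.47 CPM, and 2.14 CPM (1.17 to 3.59). Cdk1, the kinase that starts mitosis, stood at 16.4 and 10.9 CPM, 10.3 and 5.68 CPM, and 1.84 CPM (0.949 to 3.21). For these 3 genes the control was the lowest library. It was the lowest for 14 of 19 mitosis genes and 2 of 19 replication genes, against 27.9% of all genes tested.

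The donor-derived and endogenous groups overlapped for 17 of 19 mitosis genes, where 32.5% and 31.6% of all genes tested lay above or below without overlap. The exceptions were Cdk1 and the spindle midzone gene Prc1 (23.5 and 19.7 CPM against 18.4 and 11.7 CPM). Ccnb2, a cyclin partner of Cdk1, was highest in the endogenous library of day 40. It stood at 4.5 and 2.08 CPM in donor-derived cells, against 10.5 and 2.21 CPM in the endogenous libraries and 1.99 CPM in the control (log2 fold change -0.96 ± 0.83, edgeR adjusted p = 0.49). Hmgb2, a chromatin protein of dividing and resting cells, stood at 156 and 95.9 CPM, 181 and 126 CPM, and 109 CPM (-0.30 ± 0.31, adjusted p = 0.57).

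Few cells carried the mitosis transcripts. In the endogenous library of day 56 a single cell held 449 of the 1159 UMIs of the 17 mitosis genes (38.7%), and in the control 1 cell held 181 of 364 (49.7%). In the other 3 libraries the highest cell held 6.95% to 17.6%. Without the highest cell of each library the summed levels were 239 and 120 CPM in donor-derived cells, against 194 and 56.0 CPM in the endogenous libraries and 28.0 CPM in the control, in the same order as before. The highest cell held 2.47% to 7.58% of the replication UMIs. Counting intervals on a CPM value take no account of this clustering of UMIs in cells.

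To count cells rather than UMIs, each cell was thinned to 5000 UMIs, and 0 to 36 shallower cells per library were left out. A cell had a mitosis call with UMIs of 3 or more of the 17 mitosis genes and a replication call with UMIs of 5 or more of the 19 replication genes. Mitosis calls were made in 46 of 1601 donor-derived cells on day 40 (2.87%, exact 95% interval 2.11 to 3.81) and 17 of 1518 on day 56 (1.12%, 0.654 to 1.79). They were made in 25 of 1001 endogenous cells on day 40 (2.50%, 1.62 to 3.67), 6 of 767 on day 56 (0.782%, 0.288 to 1.70) and 4 of 593 control cells (0.675%, 0.184 to 1.72). The control share lay beside that of endogenous cells on day 56.

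Replication calls were made in 58 donor-derived cells on day 40 (3.62%, 2.76 to 4.66) and 16 on day 56 (1.05%, 0.604 to 1.71). Endogenous cells gave 17 on day 40 (1.70%, 0.992 to 2.71) and 3 on day 56 (0.391%, 0.0807 to 1.14), and the control 19 (3.20%, 1.94 to 4.96). Here the control share lay with that of donor-derived cells on day 40, above both endogenous libraries. Without thinning, mitosis calls were made in 4.01% and 1.42% of the cells of the donor-derived libraries, 3.67% and 1.42% in the endogenous libraries, and the control had 1.18%. Replication calls were then made in 12.0% and 6.44%, 5.22% and 3.48%, and 5.06%. Without thinning the control share lay below that of donor-derived cells on day 40, and those shares rest on unequal depths. With a replication call at 3 genes in place of 5, after thinning, the shares were 8.37% and 8.24% in the donor-derived libraries, 5.20% and 3.91% in the endogenous ones, and 7.08% for the control. The share in donor-derived cells on day 40 was 3.44 times that on day 56 at 5 genes (exact interval 1.95 to 6.41) and 1.02 times at 3 genes (0.791 to 1.31). It was 3.37 times at 7 genes (1.57 to 8.03), and 1.86 times at 5 genes without thinning (1.45 to 2.39). The difference between days was thus not seen at the threshold of 3 genes, and its size changed with the setting.

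**Figure D2:**
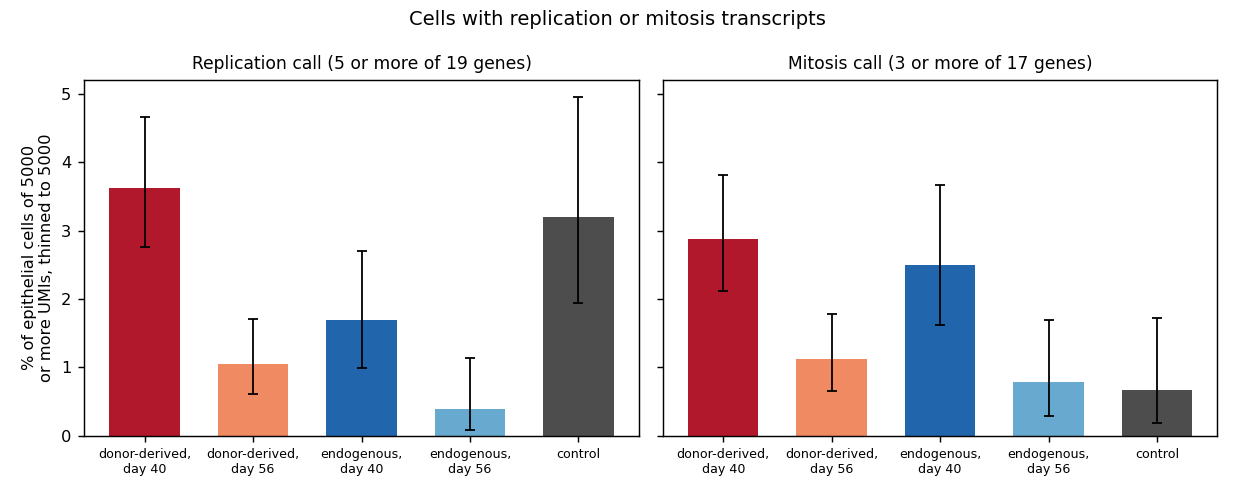
Share of epithelial cells with a replication call (left) and with a mitosis call (right) after thinning to 5000 UMIs, in % of cells. Bars are single libraries and error bars exact Clopper-Pearson 95% intervals for counting error. The control bar stands at 3.20% on the left and 0.675% on the right.

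The donor-derived share of mitosis calls was 1.15 times the endogenous one on day 40 (exact interval 0.692 to 1.95) and 1.43 times on day 56 (0.539 to 4.43). A difference between the origins was therefore not detectable at these cell numbers. For replication calls the ratios were 2.13 (1.23 to 3.91) and 2.69 (0.771 to 14.4). Between days, the share of mitosis calls on day 40 was 2.57 times that on day 56 in donor-derived cells (1.44 to 4.77) and 3.19 times in endogenous cells (1.28 to 9.52). The intervals cover counting error within these libraries, not the spread between mice, and 2 libraries against 2 cannot reach an exact two-sided p below 0.333.

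The mix of calls in the control differed from that in the recipients at the thresholds above, but not at all settings. Of the cells with either call, those with a replication call alone were 34 of 80 (42.5%, 31.5 to 54.1) and 9 of 26 (34.6%, 17.2 to 55.7) in donor-derived cells. They were 12 of 37 (32.4%, 18.0 to 49.8) and 1 of 7 (14.3%, 0.361 to 57.9) in endogenous cells and 18 of 22 (81.8%, 59.7 to 94.8) in the control. The control interval lay above those of both day 40 libraries and of donor-derived cells on day 56, and overlapped that of endogenous cells on day 56. Without thinning the share was 79.4% in both the control and the donor-derived library of day 56, 69.0% in that of day 40, and 47.9% and 65.6% in the endogenous libraries. With calls at 2 mitosis and 3 replication genes it was 86.7% in the control, 64.5% and 83.5% in donor-derived and 51.9% and 77.8% in endogenous cells. The distance of the control from the day 56 libraries was thus not seen at these 2 settings. Without thinning its interval (62.1 to 91.3) also overlapped that of donor-derived cells on day 40 (62.3 to 75.2). With thinning to 3000 UMIs the control interval (38.6 to 90.9) overlapped those of donor-derived (16.7 to 40.9) and endogenous cells (14.2 to 48.0) on day 40. With 1 control library the difference has no test. Cells with a call were deeper than the others in the recipients, with medians of 14603.5 to 23762 against 10673 to 13279.5 UMIs, and shallower in the control, 8624 against 10474 UMIs.

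The 2 lists differed in how far their transcripts lay in such cells. For this, cells under 5000 UMIs were kept and judged on all their UMIs, which added 3 cells to the 37 of the endogenous library of day 40. Cells with either call made up 4.94% and 1.67% of the epithelial cells in the donor-derived libraries, 3.86% and 0.903% in the endogenous libraries, and the control had 3.71%. They held 93.2% and 88.4%, 91.9% and 85.8%, and 83.0% of the UMIs of the 17 mitosis genes. Of the replication UMIs they held 46.7% and 14.9%, 34.8% and 12.0%, and 36.3%. The calls were made from these genes, so the percentages describe the lists and test nothing. Over the 4 recipient libraries the spindle gene Nusap1 had 99.3% of its UMIs in cells with a call and the checkpoint kinase gene Bub1 99.1%. Among replication genes Rrm2 and Cdc6 came highest with 78.4% and 75.6%, and Slbp, Cdca7 and Pcna lowest with 14.8%, 18.0% and 18.3%. Hmgb2 (41.6%) and Stmn1 (63.1%), a microtubule-destabilising protein, were the lowest of the mitosis genes.

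**Figure D3:**
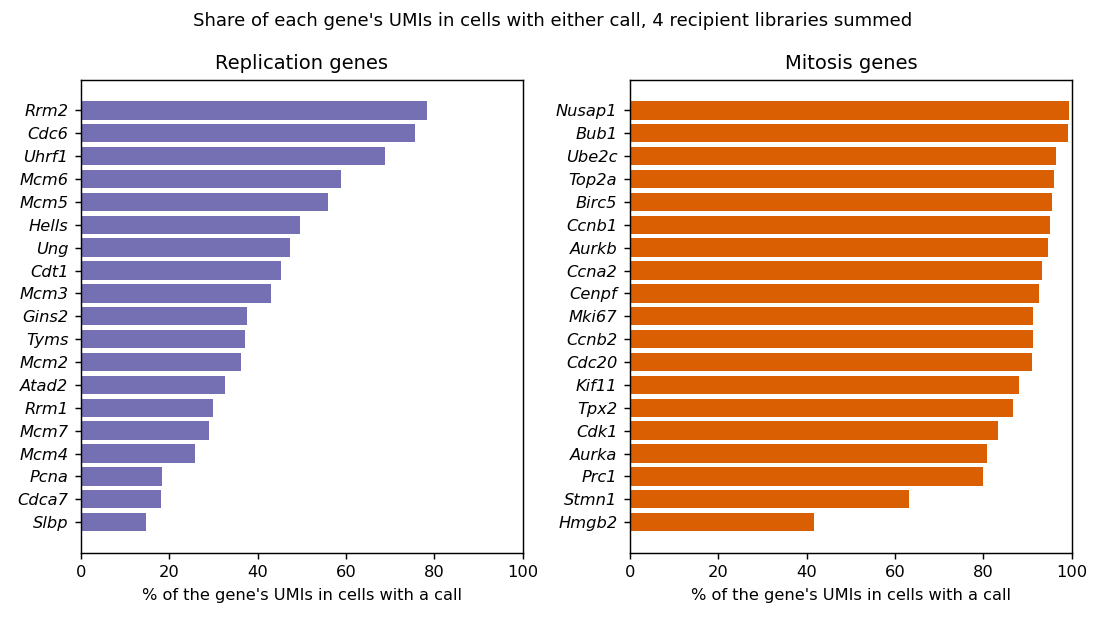
Percent of each gene's UMIs that lay in cells with a replication or mitosis call, over the epithelial cells of the 4 recipient libraries together. Bars run from 14.8% (Slbp) to 78.4% (Rrm2) among replication genes and from 41.6% (Hmgb2) to 99.3% (Nusap1) among mitosis genes.

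With all cells with a call left out, the summed replication level was 159 and 183 CPM in donor-derived cells, against 119 and 111 CPM in the endogenous libraries and 109 CPM in the control. Donor-derived cells thus remained the 2 highest libraries, and the day 40 library of that group no longer exceeded the day 56 one. The mitosis level fell to 19.1 and 17.2 CPM, 18.3 and 13.1 CPM, and 9.80 CPM. In that fit edgeR called 1 member, Atad2, at a log2 fold change of 0.99 (adjusted p = 0.034). The cells left out were chosen by counts of these same genes, so this fit is no independent test of the members. The calls were made after thinning. Without thinning 210 donor-derived and 73 endogenous cells on day 40 had either call, against 80 and 40 cells left out. Over all 13497 genes tested it called 492 higher and 1306 lower.

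Cells were clustered without the members and 151 further cell cycle genes, and clusters were named from marker lists. Dividing cells still formed a cluster of their own, 32 cells led by histone genes, which stayed unnamed with 4 other clusters. Of the cells with either call, basal-like clusters held 53 of 80 and 12 of 26 in donor-derived, 9 of 37 and 0 of 7 in endogenous and 9 of 22 in control libraries. Among basal-like cells the share with either call was 53 of 605 (8.76%, 6.63 to 11.3) and 12 of 336 (3.57%, 1.86 to 6.16) in donor-derived cells. It was 9 of 282 (3.19%, 1.47 to 5.97) in endogenous cells on day 40 and 0 of 187 on day 56, where a count of 0 allows up to 1.60% (3 counts of the total). In the control it was 9 of 51 (17.6%, 8.40 to 30.9). Donor-derived and endogenous basal-like cells lay almost wholly in different clusters, 4, 8 and 12 against 3, and cluster 3 also held the control cells. Cluster 3 held 12 and 2 donor-derived epithelial cells, and cluster 8 held 1 endogenous cell on each day. Cluster 8, led by Cxcl10, held the largest number in 1 library, 27 of 215 donor-derived cells on day 40 (12.6%).

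The unnamed cluster 6 was led by the keratin genes Krt13 and Krt4 and made mostly of endogenous and control cells, with 8 and 4 donor-derived cells. Its mean scaled marker level was highest for the basal list (0.86), above that of the basal-like donor-derived clusters 4 (0.651) and 8 (0.811). In it 16 of 185 endogenous cells on day 40 (8.65%) and 7 of 28 control cells had a call. The basal-like shares and comparisons leave these cells out. Secretory-like cells gave calls in 0 of 41 and 0 of 275 donor-derived cells, which allows up to 7.32% and 1.09%, and in 7 of 290 (2.41%) and 3 of 223 (1.35%) endogenous cells and 5 of 352 (1.42%) control cells. Ciliated-like cells, which have left the cell cycle, gave 2 calls among 702 cells. Both were in donor-derived cells, 1 on each day, and these 2 cells held 16 of the 18 and 18 of the 29 Top2a UMIs of the ciliated-like cells of their libraries, but 2 of 3 and 1 of 1 Mki67 UMIs. In the endogenous and control libraries Cdk1 was found at 1 UMI a cell in 10, 6 and 5 ciliated-like cells.

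**Figure D4:**
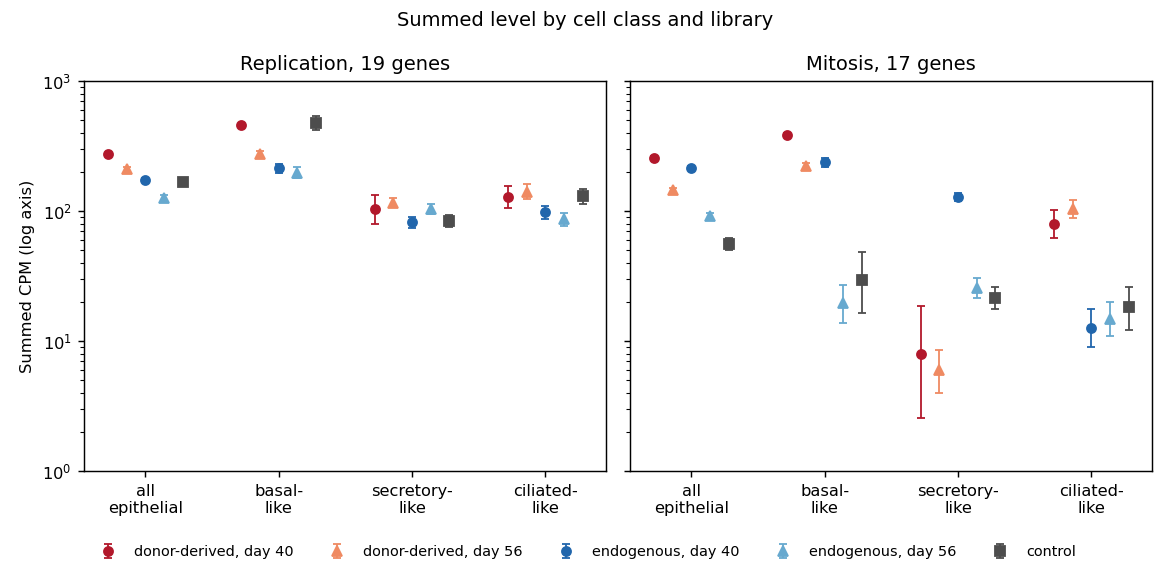
Summed CPM of the 19 replication genes (left) and of 17 mitosis genes (right) by cell class and library, on a log axis with exact Poisson 95% intervals. Replication levels are highest in basal-like cells in every library. Mitosis levels of endogenous basal-like cells are 238 CPM on day 40 and 19.5 CPM on day 56.

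Within basal-like cells the summed replication level was 455 and 273 CPM in donor-derived cells, against 213 and 197 CPM in the endogenous libraries and 479 CPM in the control. The mitosis level was 384 and 221 CPM, 238 and 19.5 CPM, and 29.6 CPM (15 UMIs). Control basal-like cells, 51 in number, thus had the highest replication level and, beside endogenous cells on day 56, the lowest mitosis level. Of 33 members tested in basal-like cells, edgeR called 3 higher and 0 lower in donor-derived cells, against 9.39% and 9.29% of the 10868 genes tested. The share of members called higher was thus close to that of all genes. The median log2 fold change was 0.88 over 16 replication genes, all positive, and 1.01 over 17 mitosis genes, beside 0.015 over all genes.

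Cdca7 stood at 37.9 and 38.4 CPM in donor-derived basal-like cells, 16.4 and 12.3 CPM in endogenous ones and 41.4 CPM in control ones. The donor-derived libraries lay above the endogenous ones and beside the control. Its log2 fold change was 1.38 ± 0.21 (edgeR adjusted p = 0.0021). Atad2 stood at 31.2 and 26.8 CPM, 16.7 and 8.73 CPM, and 43.4 CPM, with a change of 1.13 ± 0.28 (adjusted p = 0.023), and the control was again highest. Cdk1 (chr10:69335146-69352938) stood at 26.9 and 15 CPM, 7.17 and 3.08 CPM, and 3.94 CPM, the control here with the endogenous libraries. Its change was 1.96 ± 0.43 (adjusted p = 0.018). Prc1 (chr7:80294450-80316259) stood at 40.3 and 34.8 CPM, 22.5 and 9.25 CPM, and 7.88 CPM (1.17 ± 0.34, adjusted p = 0.055).

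The call of Cdca7 held under every alternative run. Cdk1 lost its call with doublets kept (edgeR adjusted p = 0.065), at clustering resolution 0.5 (0.13), with a donor-derived cluster that scored highest for basal markers joined to the class (0.32) and without the endogenous library of day 56 (0.090). Atad2 lost it in the last 2 of these (0.079 and 0.13). With the recipient as a block 15 members were called higher and 1, Hmgb2, lower (14.3% and 12.9% of all genes). With the cluster joined 1 member was called higher (4.15% of all genes). That was cluster 0, all of it donor-derived, with a mean scaled basal marker level of 0.441. Cluster 6, mostly endogenous and also highest for basal markers (0.86), was not joined, so this alternative changed the donor-derived side only. The number of members called also changed with the library left out, in fits where a group holds a single library.

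**Figure D5:**
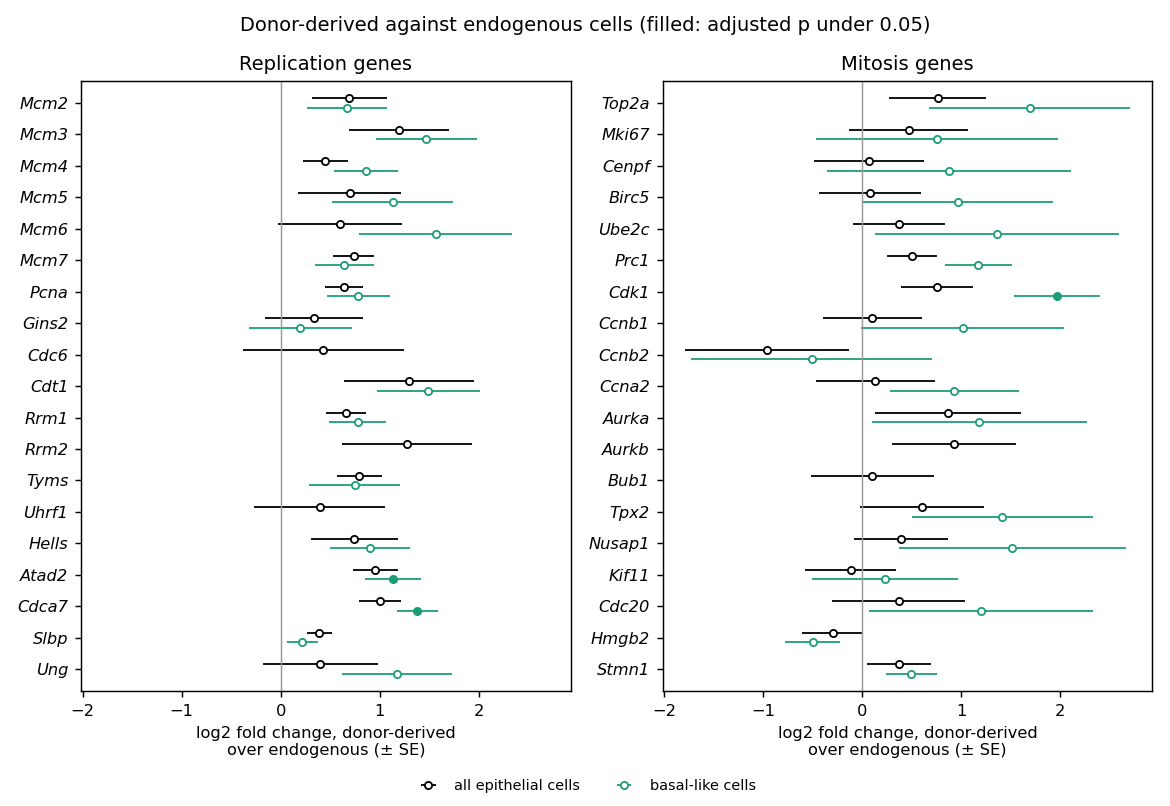
Log2 fold change of each gene, donor-derived over endogenous, with its SE from edgeR (n = 2 libraries a group). Black points are all epithelial cells and green points basal-like cells, and filled points passed an adjusted p under 0.05 (Cdca7, Atad2 and Cdk1 in basal-like cells). All replication genes lie right of 0, and mitosis genes have wider errors.

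In secretory-like cells 19 members were tested, and edgeR called Top2a and Birc5 lower in donor-derived cells and 0 higher (7.87% and 5.44% of 10486 genes). Top2a gave 1 and 2 UMIs in donor-derived, 42 and 15 in endogenous and 2 in control cells (log2 fold change -3.25 ± 0.78, adjusted p = 0.013). Birc5, the survivin of the chromosomal passenger complex, gave 0 and 4, 46 and 14, and 7 UMIs (-2.96 ± 0.78, adjusted p = 0.023). The class held 43 and 280 donor-derived cells. The log2 fold change of Top2a turned positive, to 0.13 and 0.66 at clustering resolutions 0.5 and 2.0 and to 0.036 with doublets kept. With a donor-derived cluster joined the log2 fold change was 0.87 for Top2a and 0.027 for Birc5. Neither was called by DESeq2 (adjusted p = 0.19 for both), without the donor-derived library of day 56 (0.58 and 0.41) or without the endogenous library of day 40 (0.21 and 0.34). The block called 4 members lower and 0 higher (8.17% and 5.7% of all genes). The number of members called also changed with the library left out, in fits where a group holds a single library.

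Basal-like cells were compared with secretory-like cells of the same library in all 5 libraries, since basal cells are the dividing stem cells of the airway. Of 35 members tested, edgeR with the library as a block called 11 higher in basal-like cells and 0 lower, against 16.3% and 16.7% of 11664 genes. The median log2 fold change was 1.06 over 18 replication genes and 1.05 over 17 mitosis genes, all positive, beside 0.027 over all genes. The mitosis excess did not hold in every library. In endogenous cells of day 56 the mitosis genes, without Hmgb2 and Stmn1, summed to 19.5 CPM in basal-like and 25.7 CPM in secretory-like cells. In the control they summed to 29.6 CPM (interval 16.5 to 48.8) and 21.5 CPM (17.5 to 26.2). Both donor-derived libraries and the endogenous one of day 40 were higher in basal-like cells. Cenpf and Cdc20 were higher there in 3 of 5 libraries, and Prc1 in 5. The calls were made in 8 of 18 replication genes and 3 of 17 mitosis genes.

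In basal-like cells Slbp stood at 69.8 and 64.5 CPM (donor-derived), 51.2 and 64.7 CPM (endogenous) and 84.8 CPM (control), and at 9.54 and 23.6, 19.1 and 24.1, and 15.8 CPM in secretory-like cells. Every basal-like value exceeded every secretory-like one (log2 fold change 1.04 ± 0.19, adjusted p = 0.0014). Hmgb2 stood at 214 and 126, 270 and 208, and 166 CPM against 98.6 and 38.7, 93.1 and 60.2, and 69.9 CPM, without overlap (0.81 ± 0.12, adjusted p = 1.7e-04). Mcm7 changed by 0.94 ± 0.20 (adjusted p = 0.0034), Cdca7 by 1.35 ± 0.30 (0.0070), and Gins2, a subunit of the helicase complex, by 1.12 ± 0.27 (0.0071). Stmn1, Cdt1, Mcm3, Prc1, Mcm4 and Mcm5 followed with adjusted p of 0.013 to 0.045. Without the control library Cdt1, Mcm3, Mcm4, Mcm5 and Prc1 lost their call (adjusted p = 0.090 to 0.14) and 7 members were called. Without the donor-derived library of day 40 Mcm3, Mcm4, Mcm5 and Prc1 lost it (0.056 to 0.095), again with 7 called. Mcm3 also lost it without either endogenous library, Mcm4 and Mcm5 without that of day 40, Prc1 without that of day 56 and Mcm5 without the donor-derived library of day 56 (0.052 to 0.12). In edgeR's fit without the library as a block Hmgb2 and Cdt1 were not called (adjusted p = 0.052 and 0.12). The unnamed dividing cluster lay outside both classes.

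Other cell cycle genes were taken from lists. Of 51 further replication genes tested in epithelial cells 1 rose and 0 fell, and of 69 further mitosis genes 1 rose and 0 fell, against the same 3.38% and 8.81%. Their median log2 fold changes were 0.43 and 0.36. Ect2, an exchange factor of cytokinesis named after its value was seen, stood at 11.0 and 13.4 CPM in donor-derived cells, against 5.20 and 3.71 CPM in the endogenous libraries and 3.52 CPM in the control. The groups did not overlap (log2 fold change 1.43 ± 0.25, edgeR adjusted p = 0.034). Of 22 genes of the G1 cyclins and the E2F and RB switch, 0 were called by edgeR. An unadjusted p under 0.05 was found for 5, with no share over all genes beside it.

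Of 7 genes of kinase inhibitors, which hold cells in G1, 2 rose and 1 fell, against 3.38% and 8.81% of all genes tested. Cdkn2a stood at 159 and 122 CPM in donor-derived cells, against 0.135 and 3.16 CPM in the endogenous libraries and 0 CPM in the control (edgeR adjusted p = 0.033). Cdkn2b stood at 42.2 and 24.2, 3.58 and 7.18, and 4.28 CPM (2.62 ± 0.47, adjusted p = 0.040) and had an adjusted p of 0.056 in the fit with the block. Cdkn1c stood at 1.01 and 0.483, 26.3 and 25.7, and 41.6 CPM (-5.09 ± 0.34, adjusted p = 0.0083). The donor-derived libraries with these inhibitor levels were those with the highest replication levels, and the relation between the 2 was not tested. Without either endogenous library Ect2 and these 3 inhibitor genes were not called (edgeR adjusted p = 0.092 to 0.26), and Cdkn2a also lost its call without either donor-derived library (0.15 and 0.12). Ect2 had an adjusted p of 0.067 with the cells with a call left out.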

How the data were processed

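The authors deposited UMI counts per gene and barcode from the 10x Chromium system, on a combined human and mouse reference. Per the submitters' processing notes the tools were STARsolo, Cell Ranger and Seurat, on the builds GRCh38 and GRCm38, with no role stated for any of them. Only GRCm38 rows were used. Barcodes above 10% human-mapped UMIs, under 500 genes or above 20% mitochondrial UMIs, and Scrublet doublets (4 to 23 per library), were left out, which left 611 to 1731 cells per library. UMIs were summed per library and compared with edgeR 4.0.16 (R 4.3.3, TMM, filterByExpr, quasi-likelihood F-test with robust dispersions, p-values adjusted by Benjamini-Hochberg over all genes tested). The SE is the log2 fold change divided by the square root of F. CPM are TMM-scaled. Clusters came from scanpy 1.11.5 (2000 variable genes, 30 components, 15 neighbours, Leiden resolution 1.0, seed 1) and were named from marker lists, so classes are rebuilt and may differ from the study's. A name needed at least 3 detected markers with 1 or more among the 10 leading genes (detected in at least 25% of cells, a minimum chosen after seeing the data), and no other list with more.

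The 2 libraries of each day come from 1 recipient, per the series' design text, and the deviations of the day 40 from the day 56 libraries in the 2 groups correlated at 0.2 over 5658 genes of at least 20 CPM. The main fit leaves this pairing out and the block is an alternative. Alternatives also included DESeq2 1.42.0, no composition scaling, no filter, doublets kept, other clustering resolutions and each library left out. Joining unnamed clusters to a class was an alternative chosen after seeing the data. Tested on simulated counts of 13569 genes for the epithelial comparison, edgeR recovered 72.6% of genes changed 2-fold and 100.0% of those changed 4-fold. For basal-like cells it recovered 57.9% and 97.9%. The simulation gave every gene the same dispersion and no clustering of UMIs in single cells. These shares therefore do not give the power for the mitosis genes. P-values measure the spread between these libraries. Intervals are exact 95% ones for counting error, and a count of 0 is given the limit of 3 counts. Coordinates come from the GENCODE annotation of GRCm38. All members may be named, and of the further lists the 3 largest called changes per direction at 5 CPM or more. Of these further genes 1 is not reported here. The members and lists were chosen with earlier results of these data known.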

Additional observations from a re-analysis of the deposited data

Results flagged for a closer look

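Cenpf, a kinetochore gene, stood on opposite sides in the 2 recipients. Its donor-derived level was 0.838 times the endogenous one on day 40 (counting interval 0.747 to 0.941) and 1.73 times on day 56 (1.43 to 2.11), and the difference between days was not tested. A single endogenous cell on day 56 held 93 of 141 Cenpf UMIs (66.0%). Without the highest cell of each library the ratios were 0.818 and 4.11.

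Kept cells of the control library held 51 UMIs on the human rows of the member genes, against 0 in the 4 recipient libraries. Human-mapped UMIs made up 0.128% of all UMIs in these control cells and 0.0106% to 0.0125% in the recipients. The 192 barcodes left out for human-mapped UMIs held 59334 UMIs on the human rows of the members and 32 on the mouse rows.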

How the results depend on the processing

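Of all epithelial genes 1662 were called, 2589 by DESeq2, and 0 to 4783 with each library left out, 0 without either endogenous one. Members called in epithelial cells numbered 0, 5 with the recipient as a block, 2 by DESeq2, 1 without composition scaling, 4 without a filter, 1 with doublets kept, 1 with cells with a call left out and 0 to 11 with each library left out. In basal-like cells 2031 genes and 3 members were called, 1225 and 1 with the unnamed cluster joined (chosen after seeing the data) and 1067 to 2593 and 1 to 18 with each library left out (1067 and 1133 genes without the endogenous one of day 40 and of day 56). Members there numbered 16 with the block, 6 without composition scaling and 18 without a filter. In secretory-like cells 1395 genes and 2 members were called, 570 and 1 by DESeq2, and 527 (without the donor-derived one of day 56) to 1745 and 0 to 14 with each library left out. Members there numbered 4 with the block, 10 without a filter, 1 at resolution 2.0 and 1 with the cluster joined. Between basal-like and secretory-like cells 3854 genes were called (2562 without the library as a block) and 11 members (17 at resolution 0.5 and at 2.0, 7 to 12 with each library left out). Without composition scaling the median log2 fold change of all genes moved from 0.011 to 0.13 in epithelial, from 0.015 to 0.17 in basal-like and from -0.006 to 0.11 in secretory-like cells. Genes called higher and lower then numbered 1562 and 832 in place of 1021 and 1010 in basal-like cells, and 778 and 670 in place of 570 and 825 in secretory-like cells. The control's summed replication level became 150 CPM in place of 166. With each library left out, log2 fold changes in epithelial cells ran from -0.22 (without the donor-derived library of day 40) to 1.30 for Mki67, which was also negative (-0.055) without the endogenous library of day 56. They ran from -1.68 to 0.54 (without the endogenous library of day 40) for Ccnb2 and from -0.68 to 0.021 (without the donor-derived library of day 56) for Hmgb2. In secretory-like cells Top2a turned positive with doublets kept (0.036), at resolutions 0.5 and 2.0 (0.13 and 0.66) and with the cluster joined (0.87), and Birc5 in the last (0.027). The cause of these moves was not tested. The day 40 over day 56 ratio of replication calls in donor-derived cells fell outside its counting interval, at 1.86 without thinning and 1.02 with calls at 3 replication genes, in place of 3.44. The other ratios of call shares stayed within theirs, but the donor-derived over endogenous ratio of mitosis calls moved from 1.15 to 0.929 on day 40 with calls at 2 genes and from 1.43 to 0.997 on day 56 without thinning. Cells with a call numbered 7 to 80 per library, which limits the precision of the mitosis values. A library was assumed to vary like the others where it stood alone in its group.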
